A study of Homo sapiens with 4 samples.

Results

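The mucin genes are described here through the acetylation of their promoters and surroundings in 4 cancer cell lines. The members are MUC1, MUC2, MUC4, MUC5AC, MUC5B, MUC6, MUC13, MUC16, MUC17 and MUC20, a named list of 10 genes out of 20163 protein-coding genes in the GENCODE annotation lifted to hg19. A promoter peak of a gene overlapped the 1 kb on either side of any of its annotated transcript starts. A distal peak lay within 50 kb of the gene body and did not touch the 1 kb around a start of any protein-coding gene. All 10 members had a promoter peak in at least 1 line. The study profiled acetylation of histone H3 at lysine 27 (H3K27ac) by ChIP-seq in COLO-205, a colon cancer line, DU-145, a prostate cancer line, and OVCAR-3 and SKOV-3, ovarian cancer lines. COLO-205 and OVCAR-3 were grown in RPMI media, DU-145 in Eagle minimal essential medium and SKOV-3 in McCoy’s 5a medium, each with FBS, and the same antibody (ab4729) was used throughout. There was 1 library per line and no replicate, so a difference between lines is a difference between these libraries, and the intervals below cover counting error only.

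The deposited lists held 85576 peaks in COLO-205, 76093 in OVCAR-3, 75468 in DU-145 and 14001 in SKOV-3. Of these, 180 peaks in COLO-205, 169 in OVCAR-3, 45 in DU-145 and 10 in SKOV-3 lay at or near a mucin gene. Peak height is given as the number of tags piled up at the summit for every 1000000 ChIP tags (ppm), solved from the fold enrichment and p-value of each peak, with an exact Poisson 95% interval. The ChIP tags were not counted but derived from an assumed genome size, the narrowest peak and the lowest background, and no read counts were compared with them. They came to 29.8 M in COLO-205, 34.2 M in OVCAR-3, 36 M in DU-145 and 22.4 M in SKOV-3. Fold enrichment is the pileup over the local background, and −log10 q is the significance that the peak caller gave within a library. The strongest of several peaks is the one with the highest −log10 q.

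Mucins are large glycoproteins whose repeated serine and threonine stretches carry dense O-linked sugars. The gel-forming mucins MUC2, MUC5AC, MUC5B and MUC6 are secreted and build the mucus layer of gut and airway, and their genes form a cluster on chromosome 11. MUC1, MUC4, MUC13, MUC16, MUC17 and MUC20 are anchored in the apical membrane of epithelial cells, and MUC16 carries the CA-125 epitope measured in the serum of patients with ovarian carcinoma. H3K27ac marks active promoters and enhancers, so a peak shows where the mark was enriched and not how much transcript a gene made.

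Tissue markers were looked up first, as genes with a promoter peak. The shares of all protein-coding genes with a promoter peak were 51.1% in COLO-205, 60.5% in OVCAR-3, 59.8% in DU-145 and 31.6% in SKOV-3. A marker count near these shares says little about tissue. Of 8 colon epithelial genes, 5 had a promoter peak in COLO-205, not far above its share, 2 in OVCAR-3, 2 in DU-145 and 1 in SKOV-3. CDX2, VIL1 and GPA33 had a promoter peak in COLO-205 only among the 4 libraries, whereas CDX1, CDH17 and KRT20 had none in any library. Of 7 prostate luminal genes, 2 had one in DU-145, among them TMPRSS2, and the DU-145 list held none for KLK2 and KLK3. Of 7 Mullerian and ovarian carcinoma genes, all 7 had one in OVCAR-3 against 4 in COLO-205, 3 in DU-145 and 2 in SKOV-3, where PAX8 and SOX17 were the 2. The 4 epithelial genes EPCAM, CDH1, KRT8 and KRT18 all had promoter peaks in COLO-205, DU-145 and OVCAR-3, while SKOV-3 had them at KRT8 and KRT18 alone. Of 4 mesenchymal genes, 3 had a peak in SKOV-3, 2 each in OVCAR-3 and DU-145, and 1 in COLO-205. The blood genes PTPRC, CD3E and SPI1 had no promoter peak in any library. The prostate label of DU-145 thus had little marker support in these peaks, and the epithelial set was incomplete in SKOV-3.

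In the full peak lists, COLO-205 had the most mucin promoters with a peak, OVCAR-3 came next and SKOV-3 had MUC1 alone. A promoter peak was present at 8 of the 10 members in COLO-205, where 51.1% of all protein-coding genes had one. In DU-145 the count was 3 of 10 against 59.8% of all genes, and in OVCAR-3 it was 6 of 10 against 60.5%. In SKOV-3 it was 1 of 10 against 31.6%. When starts of transcripts annotated as protein_coding alone were used, the counts were 6 in COLO-205, 4 in OVCAR-3, 3 in DU-145 and 1 in SKOV-3. The shares of all genes were then 48.8% in COLO-205, 59.4% in OVCAR-3, 58.6% in DU-145 and 30.9% in SKOV-3. MUC4 and MUC5AC made the difference, since their promoter peaks lay at internal starts of other transcript types. With canonical starts alone the counts were 6 in COLO-205, 3 in OVCAR-3 and 1 in DU-145, and SKOV-3 kept MUC1. MUC5AC has no transcript annotated as canonical and could not be counted. The share of all genes at canonical starts is not given, so these counts have no background beside them. The lead of COLO-205 rested on its lower-ranked peaks. With the 14001 strongest peaks of every library, 3 members kept a promoter peak in OVCAR-3 (MUC1, MUC16 and MUC20), 2 in COLO-205 (MUC5AC and MUC20) and MUC1 alone in DU-145 and in SKOV-3, against 37.9%, 21.8%, 37.8% and 31.6% of all genes in that order. Across lines, 5 members had a promoter peak in 1 line, 3 in 2 lines, 1 in 3 lines and 1 in all 4, and among all protein-coding genes 15.4% had it in 1 line and 25.2% in all 4. The mucin genes had a median of 4.5 distinct annotated starts, and all protein-coding genes had a median of 5.

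**Figure D1:**
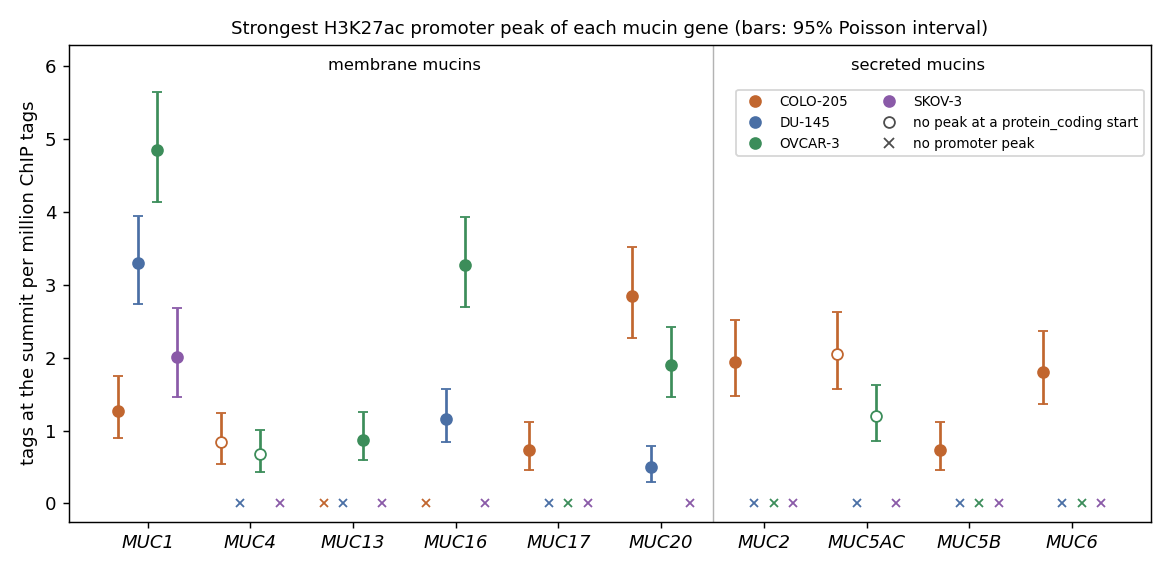
Tags at the summit of the strongest promoter peak of each mucin gene (vertical axis, ppm of ChIP tags) in the 4 lines, with exact Poisson 95% intervals; open circles mark genes whose promoter peaks in that line lie at no protein_coding start, and crosses mark no promoter peak. MUC1 in OVCAR-3 is the highest point at 4.85, MUC16 reaches 3.27 in OVCAR-3, and MUC20 reaches 2.85 in COLO-205.

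MUC1, a membrane mucin of most glandular epithelia, was the member with a promoter peak in every full peak list. Its gene lies on the minus strand at chr1:155158300-155162707. The 250 bases before its start (chr1:155162708-155162957, hg19, minus strand, no annotated exon) are shown because each of the 4 libraries had a peak over them. Here and in the other sequences, capitals mark matches to short motifs listed further on.
MUC1: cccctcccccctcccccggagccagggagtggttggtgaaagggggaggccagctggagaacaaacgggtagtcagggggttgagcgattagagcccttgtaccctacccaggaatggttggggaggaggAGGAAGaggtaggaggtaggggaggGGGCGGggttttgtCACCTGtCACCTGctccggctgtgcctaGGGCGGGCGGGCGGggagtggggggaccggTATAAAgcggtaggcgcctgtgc
The strongest MUC1 promoter peak in OVCAR-3 spanned 2486 bp at chr1:155162187-155164672 and held 4.85 ppm (4.14 to 5.65) at a fold enrichment of 8.18. In DU-145 a peak of 3665 bp at chr1:155161634-155165298 held 3.30 ppm (2.73 to 3.95) at a fold enrichment of 5.03. In SKOV-3 a narrow peak of 300 bp at chr1:155162860-155163159 held 2.01 ppm (1.47 to 2.69) at a fold enrichment of 6.86. OVCAR-3 and DU-145 thus shared a broad domain with the summit upstream of the gene, at 907 and 959 bp before the nearest start, and their intervals did not overlap. In COLO-205 the highest −log10 q belonged to a peak of 480 bp at chr1:155162265-155162744, with 1.27 ppm (0.902 to 1.75) at a fold enrichment of 4.94 and its summit in an intron of MUC1. A taller COLO-205 peak, chr1:155162902-155163724, lay upstream under the broad domain of the other lines, with 1.88 ppm (1.42 to 2.44) at a fold enrichment of 3.18. Its local background was 7.16 times the genome-wide level and that of the former peak 2.92 times. At the peaks of OVCAR-3 and DU-145 given above it was 7.70 and 6.91 times. Over all summits its 95th percentile was 5.22 times in OVCAR-3, 5.06 in DU-145 and 4.85 in COLO-205. The part of this background in the peak heights was not tested. By either COLO-205 peak, COLO-205 and SKOV-3 had overlapping intervals at MUC1. COLO-205 had 3 separate peaks at MUC1, DU-145 had 1, and OVCAR-3 and SKOV-3 had 2 each, but each line had 1 when peaks less than 350 bp apart were merged. With equal numbers of peaks COLO-205 had none at MUC1. Ranked by −log10 q among all protein-coding genes with a promoter peak in the same library, the MUC1 peak stood above 55.9% of genes in COLO-205, 79.4% in OVCAR-3, 86.1% in DU-145 and 75.1% in SKOV-3.

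Distal peaks near MUC1 numbered 10 in COLO-205, 17 in OVCAR-3, 7 in DU-145 and 0 in SKOV-3. The strongest in DU-145 and OVCAR-3 lay at the same place, in GBAP1, which is annotated as a long non-coding gene, with summits 34342 and 34167 bp from MUC1. It held 2.60 ppm (2.09 to 3.20) in OVCAR-3 at chr1:155196654-155197345 and 2.11 (1.66 to 2.64) in DU-145 at chr1:155196529-155197295. COLO-205 had a peak over this site as well, while its strongest distal peak, with a −log10 q of 8.35, lay in a stretch without annotated genes 19410 bp away at chr1:155138548-155139029. A second site, chr1:155157690-155158304 at the 3′ end of MUC1, was also acetylated in COLO-205, DU-145 and OVCAR-3.

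MUC16 had its acetylation at the far upstream start of the gene, in OVCAR-3 and, at a lower level, in DU-145. The gene is transcribed from the minus strand over 161547 bp at chr19:8959520-9121066. The start of its canonical transcript, at position 9092018, lay 29048 bp downstream of the outermost coding start at 9121066. No line had a peak within 1 kb of the canonical start: the nearest peak edge was 2649 bp away in OVCAR-3, 19016 bp away in COLO-205, 27593 bp away in DU-145 and 59646 bp away in SKOV-3. The 250 bases before the outermost start (chr19:9121067-9121316, hg19, minus strand, no annotated exon) are given because the peaks of OVCAR-3 and DU-145 covered them.
MUC16: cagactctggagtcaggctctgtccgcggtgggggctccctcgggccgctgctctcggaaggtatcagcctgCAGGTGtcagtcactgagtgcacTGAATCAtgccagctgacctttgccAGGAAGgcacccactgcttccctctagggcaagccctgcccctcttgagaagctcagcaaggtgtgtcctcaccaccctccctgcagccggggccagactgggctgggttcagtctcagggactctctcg
In OVCAR-3 the peak over this start spanned 4257 bp at chr19:9118581-9122837. It had a fold enrichment of 24.2, a −log10 q of 118 and 3.27 ppm (2.70 to 3.94), with its summit 553 bp inside the gene, in an intron. In DU-145 a peak of 2169 bp at chr19:9119611-9121779 had a fold enrichment of 5.42, a −log10 q of 16.7 and 1.17 ppm (0.840 to 1.57). The intervals of OVCAR-3 and DU-145 did not overlap, and COLO-205 and SKOV-3 had no promoter peak at MUC16. Within its library the OVCAR-3 peak ranked above 87.7% of genes with a promoter peak and the DU-145 peak above 36.1%. A further OVCAR-3 peak at an internal start, chr19:9005563-9005790, held 0.614 ppm.

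Distal peaks of MUC16 were most numerous in OVCAR-3, followed by DU-145. OVCAR-3 had 54 distal peaks over 27003 bp, DU-145 had 14 over 5706 bp, COLO-205 had 4 over 972 bp and SKOV-3 had 2 over 423 bp. The count in OVCAR-3 was higher than for 98.5% of protein-coding genes in that library, and the count in DU-145 higher than for 89.2%. The 2 peaks of SKOV-3, without a promoter peak, placed MUC16 above 89.6% of genes in that shorter list, so DU-145 did not stand out by rank. Per 100 kb of gene body and surroundings, which takes the length of the gene into account, OVCAR-3 had 20.6 distal peaks and stood above 96.5% of genes, SKOV-3 above 84.7%, DU-145 above 79.7% and COLO-205 above 50.6%. The strongest distal peak of any member in any line was the OVCAR-3 peak chr19:9164703-9167916, 3214 bp wide and 44812 bp upstream of the gene, with a −log10 q of 138 and 3.74 ppm (3.12 to 4.45). Its neighbour chr19:9170174-9171556 had a −log10 q of 125 and a fold enrichment of 28.0. No gene is annotated at either summit. DU-145 had the peaks chr19:9165139-9166278 and chr19:9166355-9166854 over the stronger of these sites, and COLO-205 had chr19:9166518-9166768 with 0.604 ppm. Of the 14 DU-145 distal peaks, 12 overlapped a peak of another line. The 2 SKOV-3 peaks, chr19:9151664-9151855 and chr19:9160823-9161053, held 0.625 ppm each (0.342 to 1.05) and lay inside wider peaks of OVCAR-3 and within sites also called in DU-145. MUC16 thus had SKOV-3 peaks upstream of the gene and none at its promoter. OVCAR-3 had 93 peaks in the 1 Mb around MUC16 and 90.7 per Mb on chromosome 19, against 28.2 per Mb in the whole library, so this chromosome was peak-rich in OVCAR-3 as a whole. In DU-145 the figures were 62 peaks in the 1 Mb and 52.5 per Mb on the chromosome. The part of this density in the MUC16 counts was not tested.

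**Figure D2:**
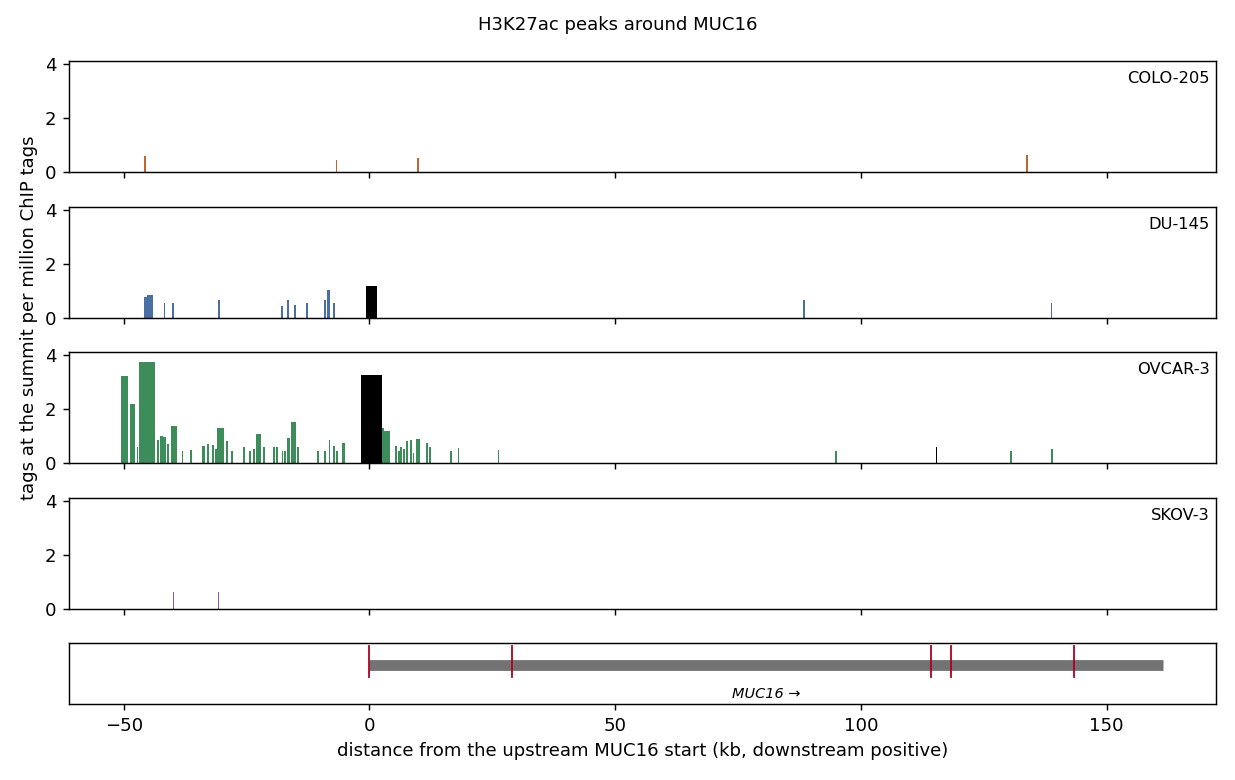
Position of every promoter peak (black) and distal peak (coloured) of MUC16 in the 4 lines, as distance in kb from the outermost start (downstream positive), with height in tags at the summit in ppm of ChIP tags; red ticks on the gene bar are annotated starts, and bars narrower than 0.35 kb are drawn at that width. OVCAR-3 and DU-145 have a peak over the outermost start, and the tallest bar is the OVCAR-3 peak upstream at 3.74 ppm.

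MUC13, a membrane mucin of the intestinal surface, had promoter peaks in OVCAR-3 alone among the 4 libraries and none in the colon line. The gene lies at chr3:124624289-124672663 on the minus strand, with its canonical start at 124653595. The 250 bases before that start (chr3:124653596-124653845, hg19, minus strand) lie between the 2 OVCAR-3 peaks.
MUC13: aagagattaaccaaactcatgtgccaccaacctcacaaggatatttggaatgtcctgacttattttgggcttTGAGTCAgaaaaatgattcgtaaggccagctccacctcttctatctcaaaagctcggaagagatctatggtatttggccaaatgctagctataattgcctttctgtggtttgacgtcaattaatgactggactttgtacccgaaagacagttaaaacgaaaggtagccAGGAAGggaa
Of those peaks, chr3:124654480-124654712 held 0.877 ppm (0.592 to 1.25) at a fold enrichment of 8.10, with its summit 1041 bp upstream of that start, in an intron of a longer transcript, and so outside the 1 kb window that the peak edge entered. The other, chr3:124653067-124653309, held 0.701 ppm at a fold enrichment of 4.76 and its edge lay 286 bp downstream of the start. In COLO-205 the nearest peak edge was 3096 bp from the canonical start, in DU-145 47727 bp and in SKOV-3 47850 bp. The promoter peak of MUC13 in OVCAR-3 was weak by rank, above 22.3% of genes with a promoter peak.

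The surroundings of MUC13 were the most peak-rich of any member in OVCAR-3. The distal peaks numbered 76 in OVCAR-3, more than for 99.4% of protein-coding genes, against 3 in COLO-205, 1 in DU-145 and 1 in SKOV-3. Of the 76, 17 had their summit in the MUC13 gene body and 7 had a −log10 q of at least 20. The strongest lay in an intron of the neighbouring integrin gene ITGB5, at chr3:124608447-124609561, with 2.92 ppm (2.38 to 3.55) and a fold enrichment of 17.5. The region was dense well beyond the gene: OVCAR-3 had 494 peaks in the 1 Mb around MUC13 and 53.3 per Mb on chromosome 3, and COLO-205 had 47 in the 1 Mb, DU-145 11 and SKOV-3 5. How much of the count this regional density makes up was not tested. The single distal peaks of DU-145 and SKOV-3 fell on the same site, chr3:124704517-124705312 in an intron of HEG1, where OVCAR-3 also had a peak. It held 0.915 ppm (0.630 to 1.29) in DU-145, 0.982 (0.616 to 1.49) in SKOV-3 and 1.29 in OVCAR-3.

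MUC20 and MUC4 are neighbours on chromosome 3, with 5641 bp between the gene bodies. MUC20 (chr3:195447755-195467994, plus strand) had promoter peaks in COLO-205, OVCAR-3 and DU-145, whereas MUC4 (chr3:195473636-195538844, minus strand), a large membrane mucin that binds ERBB2, had them at internal starts in COLO-205 and OVCAR-3. In COLO-205 the peak chr3:195447490-195448075 held 2.85 ppm (2.28 to 3.53) at a fold enrichment of 6.46, with its summit 37 bp from a coding start. In OVCAR-3 the peak chr3:195447615-195448131 held 1.90 ppm (1.47 to 2.42) at a fold enrichment of 6.68. The 2 intervals overlapped, and the summits were 54 bp apart. Local background was 5.22 times the genome-wide level at the COLO-205 peak, beyond the 95th percentile of 4.85 times in that library. At the OVCAR-3 peak it was 3.52 times. The COLO-205 peak ranked above 94.1% of genes with a promoter peak in its library, the highest rank of any member in any library, and the OVCAR-3 peak above 38.2%. In DU-145 the promoter peak of MUC20 lay at an internal coding start, chr3:195453837-195454386, with 0.499 ppm (0.296 to 0.789), and its summit fell 1017 bp from that start. The number of promoter peaks was 4 in COLO-205, 3 in OVCAR-3, 1 in DU-145 and 0 in SKOV-3.

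At MUC4 no line had a peak within 1 kb of the canonical start at 195538800. The nearest peak edge was 1147 bp inside the gene in COLO-205, at chr3:195537370-195537653, and 8257 bp away in OVCAR-3, 25787 bp in DU-145 and 102854 bp in SKOV-3. The 5 COLO-205 promoter peaks lay at internal starts of transcripts of the retained intron, nonsense-mediated decay and undefined coding types. The strongest of them, chr3:195504911-195505186, held 0.839 ppm (0.543 to 1.24) at a fold enrichment of 5.86. The 1 OVCAR-3 promoter peak, chr3:195481035-195481338, held 0.672 ppm (0.426 to 1.01) and overlapped a COLO-205 peak. By rank these were low to middling, above 45.3% of genes in COLO-205 and 2.42% in OVCAR-3.

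Around both genes COLO-205 stood apart. Counted once each, distal peaks near MUC20 or MUC4 numbered 75 over 32314 bp in COLO-205, 7 over 1758 bp in OVCAR-3, 11 over 5925 bp in DU-145 and 0 in SKOV-3. In COLO-205 the 64 distal peaks of MUC4 were more than for 99.4% of protein-coding genes and the 49 of MUC20 more than for 99.0%. Of the 75, 11 had a −log10 q of at least 20, and no distal peak of the other lines there reached that value. The strongest were upstream of MUC20 in the long non-coding gene MUC20-OT1, led by chr3:195410588-195411453 with 2.52 ppm (1.98 to 3.15) and chr3:195432168-195432774 with 2.08 (1.59 to 2.67). The latter summit is intronic, and its 201 bases (chr3:195432213-195432413, hg19, plus strand) are printed as the COLO-205 site with the highest −log10 q within reach of both genes.
MUC20 and MUC4 upstream site: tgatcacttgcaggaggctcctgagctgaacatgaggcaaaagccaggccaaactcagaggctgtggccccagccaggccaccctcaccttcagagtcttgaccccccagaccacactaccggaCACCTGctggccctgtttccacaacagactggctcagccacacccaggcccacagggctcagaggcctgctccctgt
Within MUC4, COLO-205 and DU-145 shared a peak over an exon, chr3:195512104-195513228 in COLO-205, with 2.05 ppm. They also shared a site in MUC20-OT1, at chr3:195443260-195444133 in DU-145, where it was the strongest distal peak with 1.19 ppm (0.863 to 1.61). COLO-205 held 2.18 there (1.68 to 2.78). COLO-205 had 263 peaks in the 1 Mb around MUC4, where chromosome 3 as a whole had 17.1 per Mb, and the other lines had 64 (DU-145), 80 (OVCAR-3) and 4 (SKOV-3). The part of this density in the counts was not tested. Annotated pseudogenes lie in the same stretch, among them SDHAP2 and SMBD1P, and how reads were assigned between similar copies was not tested.

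**Figure D3:**
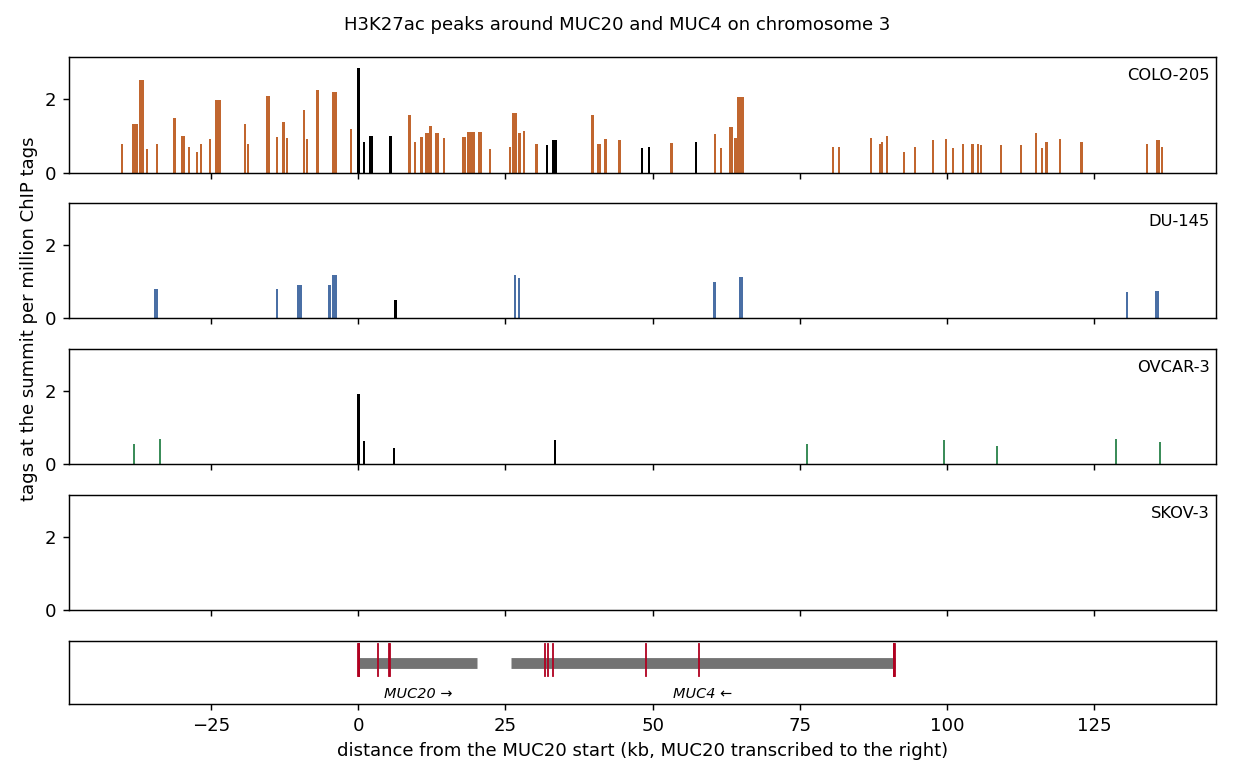
Promoter peaks (black) and distal peaks (coloured) of MUC20 and MUC4 in the 4 lines, by distance in kb from the outermost MUC20 start, with height in tags at the summit in ppm of ChIP tags; red ticks are annotated starts. COLO-205 carries 75 distal peaks across the region and SKOV-3 carries none, and COLO-205 and OVCAR-3 share the peak at the MUC20 start.

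MUC17, a membrane mucin of the intestinal brush border, had a weak promoter peak in COLO-205 and none in the other libraries. The peak, chr7:100663266-100663632, covered the start of the gene (chr7:100663353-100702140, plus strand) and part of the 250 bases before it (chr7:100663103-100663352, hg19, plus strand).
MUC17: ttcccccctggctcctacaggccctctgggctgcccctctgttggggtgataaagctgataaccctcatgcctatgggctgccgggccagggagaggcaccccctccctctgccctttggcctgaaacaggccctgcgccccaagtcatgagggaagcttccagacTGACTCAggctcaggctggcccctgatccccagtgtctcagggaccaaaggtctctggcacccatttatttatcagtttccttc
It held 22 tags at its summit, or 0.738 ppm (0.463 to 1.12), with a −log10 q of 5.18 at a fold enrichment of 3.42, and ranked above 4.20% of genes with a promoter peak. Distal peaks numbered 2 in COLO-205, 2 in OVCAR-3, 5 in DU-145 and 0 in SKOV-3. The COLO-205 pair had summits in introns of the neighbouring mucin gene MUC12. The strongest DU-145 peak, chr7:100735471-100736111, lay in an exon of TRIM56, 33734 bp away, and held 1.33 ppm. SKOV-3 had 1 peak in the 1 Mb around MUC17 and 0.408 per Mb on chromosome 7, against 5.19 per Mb in its library. The scarcity of SKOV-3 peaks thus held for chromosome 7 as a whole. It bears on every gene of that chromosome without a peak in SKOV-3, MUC12 among them, and its cause was not tested.

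The gel-forming mucins MUC6, MUC2, MUC5AC and MUC5B lie in this order within 271 kb of chromosome 11 (chr11:1012823-1283402). All 4 had a promoter peak in COLO-205, MUC5AC had one in OVCAR-3, and DU-145 and SKOV-3 had none. The COLO-205 peaks at the outer coding starts were weak. At MUC5B, the peak chr11:1243603-1243931 held 0.738 ppm (0.463 to 1.12) and its summit stood 452 bp upstream of the start. At MUC6, chr11:1036832-1037094 held 0.772 ppm, and at MUC2, chr11:1073202-1073910 held 1.04. MUC2 is the main mucin of colonic goblet cells, and the 250 bases before its start (chr11:1074625-1074874, hg19, plus strand) are shown for that reason; the COLO-205 peak ended upstream of them.
MUC2: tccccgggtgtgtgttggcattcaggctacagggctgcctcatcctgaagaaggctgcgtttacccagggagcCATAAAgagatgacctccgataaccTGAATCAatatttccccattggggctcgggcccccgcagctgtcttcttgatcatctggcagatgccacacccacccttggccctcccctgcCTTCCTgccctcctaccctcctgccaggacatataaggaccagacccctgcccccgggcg
All 3 of these peaks had a −log10 q between 5.12 and 5.37, and the MUC5B peak ranked above 3.98% of genes with a promoter peak.

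The stronger COLO-205 promoter peaks of the cluster were at internal starts with a raised local background. The peak chr11:1092830-1093061 in an intron of MUC2 held 1.95 ppm (1.48 to 2.52) at a fold enrichment of 3.24, and the peak chr11:1016826-1017039 in an exon of MUC6 held 1.81 (1.36 to 2.36) at a fold enrichment of 2.45. The local background was 7.28 times the genome-wide level at the former and 9.10 times at the latter. Over all COLO-205 summits its median was 1.82 times and its 95th percentile 4.85 times that level, so both sites lay beyond it. MUC5AC has an assembly gap of 50000 bp inside the gene in hg19, at chr11:1162760-1212759. The start that gave its promoter peaks, at 1212760, is the base after that gap and belongs to a transcript not annotated as coding. The peak there held 2.05 ppm (1.57 to 2.63) in COLO-205, at chr11:1212985-1213685, and 1.20 (0.860 to 1.63) in OVCAR-3, at chr11:1213327-1213525. The local background was 5.46 times the genome-wide level in COLO-205 and 5.61 times in OVCAR-3. The parts of the gap and of the raised background in these peaks were not tested, and no line had a peak within 1 kb of the coding starts of MUC5AC.

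Distal peaks of the cluster, counted once each, numbered 67 in COLO-205, 2 in OVCAR-3, 4 in DU-145 and 5 in SKOV-3. The COLO-205 peaks were many and of ordinary height for that library, with a median of 0.805 ppm here and over all its peaks. None had a −log10 q above 12.2, and 2 of the 67 overlapped a peak of another line. The SKOV-3 peaks were few, with a median of 1.92 ppm against 1.34 ppm over all peaks of SKOV-3. In SKOV-3, 4 of the 5 formed a run from chr11:1144907 to 1147900, between MUC2 and MUC5AC and without an annotated gene, and 3 had a −log10 q of at least 20. The strongest, chr11:1145650-1146390, held 2.77 ppm (2.12 to 3.55) with a −log10 q of 40.8 at a fold enrichment of 10.6. Its summit lay 5438 bp before the MUC5AC gene body, and the 201 bases around it (chr11:1146042-1146242, hg19, plus strand) are printed as the strongest mucin site of SKOV-3.
MUC2 to MUC5AC site: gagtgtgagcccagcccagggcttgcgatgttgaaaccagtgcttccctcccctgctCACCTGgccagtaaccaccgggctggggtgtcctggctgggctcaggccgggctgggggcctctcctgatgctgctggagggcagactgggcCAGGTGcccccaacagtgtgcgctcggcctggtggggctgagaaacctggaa
DU-145 shared this site. Its peaks chr11:1146044-1146352 and chr11:1147228-1147880 held 1.05 and 1.44 ppm (1.08 to 1.89 for the latter), and COLO-205 and OVCAR-3 had no peak there. In SKOV-3 the distal count of MUC5AC, 5, was above that of 97.3% of protein-coding genes, and that of MUC2, 4, above 96.0%, while neither gene had a promoter peak in that library. The 4 peaks of the run lay less than 350 bp apart and join into 1 when such peaks are merged, so these ranks hold for unmerged peaks. The fifth SKOV-3 peak, chr11:1224498-1224966, lay between MUC5AC and MUC5B and held 1.92 ppm (1.39 to 2.59). COLO-205 had 206 peaks in the 1 Mb around MUC5AC against 23.4 per Mb on chromosome 11, so the density reached past the cluster. SKOV-3 had 23 peaks in the same 1 Mb against 6.01 per Mb on the chromosome. The part of this density in the counts was not tested.

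**Figure D4:**
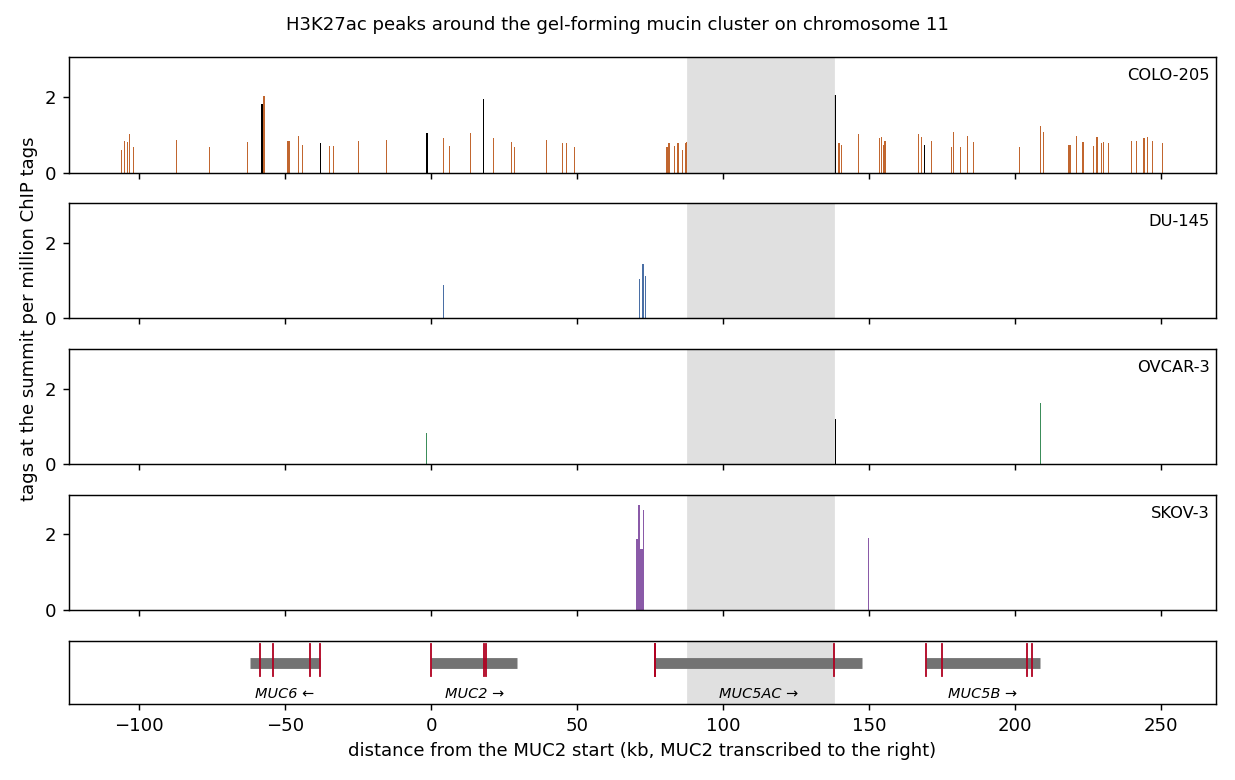
Promoter peaks (black) and distal peaks (coloured) of the 4 gel-forming mucin genes on chromosome 11, by distance in kb from the MUC2 start, with height in tags at the summit in ppm of ChIP tags; the grey band is the assembly gap of 50000 bp inside MUC5AC and red ticks are annotated starts. COLO-205 shows 67 distal peaks across the cluster, and SKOV-3 shows a run of 4 before MUC5AC, up to 2.77 ppm, where DU-145 also has peaks.

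Over the 10 members together, distal peaks counted once numbered 161 in COLO-205, 158 in OVCAR-3, 42 in DU-145 and 8 in SKOV-3. With the 14001 strongest peaks of every library the counts were 21 in COLO-205, 9 in OVCAR-3, 8 in SKOV-3 and 3 in DU-145, so OVCAR-3 came close to SKOV-3 and DU-145 fell below it. All 10 members had at least 1 distal peak in COLO-205, 9 in OVCAR-3, 9 in DU-145 and 5 in SKOV-3. The shares of all protein-coding genes with at least 1 distal peak by the same rule were 73.6% in COLO-205, 59.2% in OVCAR-3, 63.4% in DU-145 and 21.8% in SKOV-3. The median gene had 2 distal peaks in COLO-205, 1 in OVCAR-3, 2 in DU-145 and 0 in SKOV-3. COLO-205 peaks were spread over the chromosome 11 cluster and the MUC20 and MUC4 pair, and OVCAR-3 peaks over MUC13 and MUC16. Another 18 peaks in COLO-205, 22 in OVCAR-3, 14 in DU-145 and 4 in SKOV-3 lay within 50 kb of a member but at the promoter of another protein-coding gene, and were not counted.

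**Figure D5:**
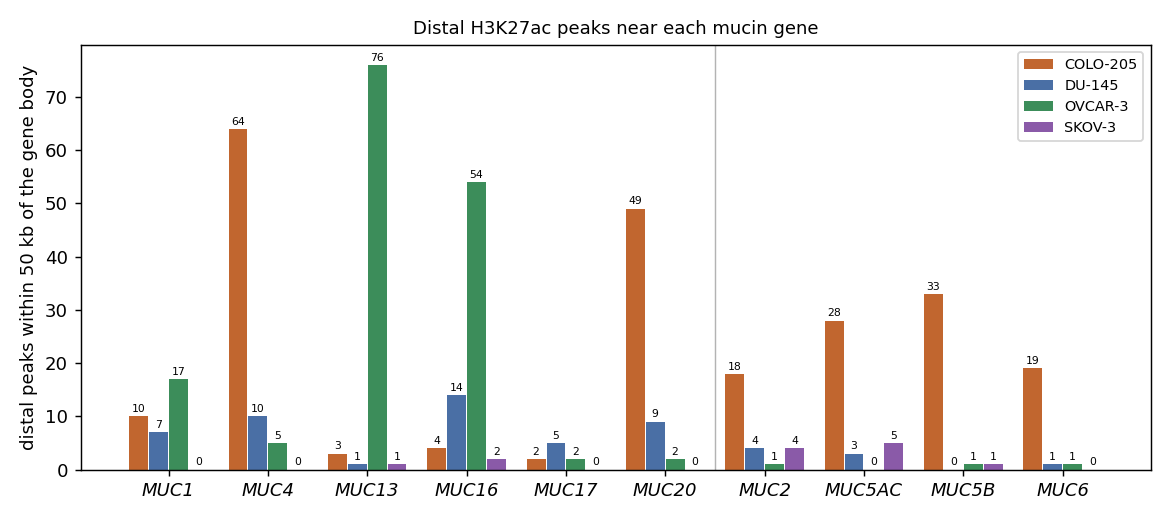
Number of distal peaks within 50 kb of the body of each mucin gene in the 4 lines, with membrane mucins left and secreted mucins right of the grey line; a peak in reach of more than 1 gene is drawn at each. MUC13 has 76 and MUC16 54 in OVCAR-3, and MUC4 has 64 and MUC20 49 in COLO-205.

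Sites called in several lines were about as rare near the mucin genes as among all distal peaks. The distal peaks of the 4 lines merged into 317 sites, of which 277 were called in 1 line, 33 in 2 lines, 7 in 3 lines and 0 in all 4. Those of 1 line made up 87.4% of the mucin sites and 88.2% of all distal sites. A peak of another line was overlapped by 15.5% of the COLO-205 distal peaks (15.9% of all distal peaks in that library) and 20.9% of those of OVCAR-3 (28.6%). For DU-145 the share was 71.4% (25.8%) and for SKOV-3, with 8 peaks, 75% (4194 of 6355 peaks). Of the 30 shared DU-145 peaks, 12 lay near MUC16 and 8 near MUC4 and MUC20, where OVCAR-3 and COLO-205 respectively had many peaks. The 7 sites of 3 lines lay near MUC16 (3), MUC1 (2), MUC13 (1) and MUC4 (1). The site near MUC4, chr3:195583075-195583931, was called in COLO-205, DU-145 and OVCAR-3. Of the mucin promoter peaks, 8 of 19 in COLO-205, 8 of 11 in OVCAR-3, all 3 in DU-145 and both in SKOV-3 overlapped a peak of another line. Among all promoter peaks the shares were 63.5% in COLO-205, 72.9% in OVCAR-3, 68.0% in DU-145 and 96.5% in SKOV-3. Of the 19 COLO-205 peaks, 5 were at MUC4 and 4 at MUC20, so a few genes carry that count. The median distal peak held 0.839 ppm against 0.805 for all peaks in COLO-205, 0.888 against 0.749 in DU-145 and 0.731 against 0.789 in OVCAR-3. In SKOV-3, with 8 peaks, the median was further above that of the library, at 1.74 against 1.34.

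For each of the 10 members, 250 bases were searched on both strands for short motifs. They ended at the outermost coding start with a promoter peak in any line, or at the outermost coding start where none had one, moved to any annotated start up to 500 bp further out. This was the outermost start of every member but MUC13, where the canonical start was used. The peaks thus took part in placing these windows, whereas the windows of 19862 protein-coding genes were placed at canonical starts. The AP-1 letters TGANTCA occurred before 4 members, MUC2, MUC13, MUC16 and MUC17, and in 4.70% of all windows. The ETS letters AGGAAG occurred before 6, among them MUC1, MUC2, MUC5B, MUC13 and MUC16, and in 27.9% of all windows. The ZEB letters CAGGTG occurred before 4, MUC1, MUC5B, MUC6 and MUC16, and in 17.4% of windows. Matches of SP and KLF factors, GGGCGG, were found before MUC1 and MUC5AC, that is 2 of 10, and in 59.2% of all windows. MUC1 held 4 of these, 3 of them overlapping, and the single TATAAA of the set, 23 bases before its start, where 9.26% of all windows hold one. The CDX letters TTTATG occurred before MUC2 alone, reverse complemented, and in 6.93% of windows; they share 5 letters with the reverse complement of TATAAA. The EGR letters GCGNGGGCG, which can overlap GGGCGG, the GATA letters AGATAA and the STAT letters TTCCNGGAA were in no member window and in 12.7%, 6.57% and 1.01% of all windows. The MUC13 window was the poorest in G and C at 41.6%, and the MUC5AC window the richest at 68%. Of the distal windows printed above, that of SKOV-3 before MUC5AC held CAGGTG or its reverse complement at 2 places, where 30.9% of all distal SKOV-3 summit windows of this length held it. The COLO-205 window near MUC20 held 1 CAGGTG, found in 33.4% of those of COLO-205.

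Genes that work with the mucins were counted in the same way. Of 98 companion genes in 6 lists, 56 had a promoter peak in COLO-205 (57.1%), 56 in OVCAR-3 (57.1%), 50 in DU-145 (51.0%) and 21 in SKOV-3 (21.4%), to be set beside the shares of all protein-coding genes given above. With equal numbers of peaks the counts were 31 in DU-145, 27 in COLO-205, 27 in OVCAR-3 and 21 in SKOV-3, and DU-145 went from below COLO-205 and OVCAR-3 to above them. Other mucins and sialomucins had a promoter peak at 3 of 13 genes in COLO-205, 3 in OVCAR-3, 4 in DU-145 and 1 in SKOV-3. The MUC3A promoter was marked in COLO-205, MUC7 in OVCAR-3, MUCL3 in DU-145, MUC12 in COLO-205 and DU-145, and MUC22 in DU-145 and OVCAR-3. The endolysosomal sialomucin gene CD164 was marked in all 4, and 7 genes of the list in none.

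The GALNT family, whose enzymes place the first sugar on serine or threonine, had promoter peaks at 12 of 20 genes in each of COLO-205, DU-145 and OVCAR-3 and at 4 in SKOV-3. GALNT1, GALNT2, GALNT7 and GALNT10 were marked in all 4 lines. GALNT4, GALNT6 and GALNT16 were marked in all but SKOV-3, and GALNT3 in COLO-205 and OVCAR-3. Of 17 enzymes that extend or cap the chains, 10 were marked in COLO-205, 12 in OVCAR-3, 8 in DU-145 and 2 in SKOV-3, and none in all 4. The sialyltransferase gene ST6GALNAC1 had 7 promoter peaks in OVCAR-3, up to a −log10 q of 92.3, and 2 in COLO-205, up to 10.7. Its neighbour in the list, ST6GALNAC2, had 10 in OVCAR-3, up to 193, and 1 in DU-145. The fucosyltransferase gene FUT2 had 3 in COLO-205 and FUT1 had 3 in OVCAR-3, and neither had one in another line. B3GNT3 was marked in COLO-205 and B3GNT6 in OVCAR-3.

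Goblet cell and mucus secretion genes were mostly unmarked, with 4 of 16 in COLO-205, 5 in OVCAR-3, 4 in DU-145 and 0 in SKOV-3. The goblet regulators ATOH1 and GFI1 and the secreted goblet products CLCA1 and ZG16 had no promoter peak in any library, and SPDEF had one in DU-145 alone. In COLO-205 the marked genes were ERN2 and the trefoil factor genes TFF1, TFF2 and TFF3, whose peptides are secreted with mucins. TFF3 had 4 promoter peaks there, with 1.14 ppm at the strongest, and none elsewhere. In OVCAR-3 they were CREB3L1, FOXA3, FCGBP, TFF2 and REP15.

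Of 9 partners that bind membrane mucins or are bound by them, 7 were marked in COLO-205, 8 in OVCAR-3, 8 in DU-145 and 2 in SKOV-3. MSLN, the mesothelin that binds MUC16, had promoter peaks in OVCAR-3 (3.13 ppm at the strongest), COLO-205 (1.91) and DU-145 (0.943) and none in SKOV-3. LGALS3 and ERBB2 were marked in all 4 lines, and ERBB2, the partner of MUC4, had 16 promoter peaks in SKOV-3, with 6.74 ppm at the strongest, against 9 in COLO-205, 3 in DU-145 and 2 in OVCAR-3. SKOV-3 had no promoter or distal peak at MUC4.

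Of 23 genes known or proposed to regulate mucin genes, 20 were marked in COLO-205, 16 in OVCAR-3, 14 in DU-145 and 12 in SKOV-3. Those of the intestinal programme, CDX2 and HNF4A, were marked in COLO-205 alone, with 3 and 2 promoter peaks. ELF3, an epithelial ETS factor, had a −log10 q of 133 at its strongest peak in OVCAR-3, 56.4 in DU-145 and 8.47 in COLO-205, and no peak in SKOV-3. KLF4 was marked in the same 3 lines and FOSL1 in all but OVCAR-3. GATA5, FOXA2 and SOX2 were marked in COLO-205 and OVCAR-3, and HOXB13 in OVCAR-3 alone. GATA6, SP1, STAT3, FOXA1, NFKB1, RELA, FOS, EGR1 and ZEB1 were among those marked in all 4, and CDX1 and GATA4 in none.

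The genes with the promoter profile nearest to a member were sought for MUC1, MUC16 and MUC20, the 3 members with the highest promoter pileup in any line, over the 4 libraries by the tallest promoter peak of each gene in ppm, on the scale of log2 (ppm + 1). For MUC1, among 5071 other genes with promoter peaks in all 4 lines, PTPN11 and RPL6 were nearest at a distance of 0.07 each, followed by ZBTB14 at 0.13. For MUC16, among 2011 genes marked in DU-145 and OVCAR-3 alone, they were CCDC191 and QTRT2 at 0.05 each and SCHIP1 at 0.07. MUC20 had no neighbour as close among 2613 genes marked in all lines but SKOV-3, with ATG16L1 at 0.50 and ABHD13 and LIG4 at 0.51. The genes of each pair at an equal distance, PTPN11 with RPL6, CCDC191 with QTRT2 and ABHD13 with LIG4, had the same tallest promoter peaks, so each pair counts as 1 neighbour.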

How the data were processed

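The deposited narrowPeak lists of the 4 libraries were used as given. The authors gave fold enrichment as a ratio over local background, and the deposited −log10 p, −log10 q and score columns came from their peak caller; the score was not used. The tools named for the deposited files are Bowtie2 2.1.0 and MACS2 2.1.0.20150603. Tags at each summit and its local background were solved from fold enrichment and −log10 p, and ChIP tags from the lowest background, with 2700000000 genome positions. Promoter and distal peaks were assigned with GENCODE 44 lifted to GRCh37 (hg19). The 10 members are a list of named genes, looked up by symbol. The members and lists were chosen with earlier results of these data known. The alternative with canonical starts was added after the data had been seen. Python 3.11.15, numpy 2.4.6, scipy 1.17.1, matplotlib 3.10.9 and pysam 0.24.0 were used. The solving step was tested on simulated data.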

Additional observations from a re-analysis of the deposited data

How the results depend on the processing

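No paired analysis was possible because each line has a single library. At a −log10 q of at least 10, mucin genes with a promoter peak fell from 8 to 5 in COLO-205, and distal peaks fell from 161 to 38 in COLO-205, 42 to 16 in DU-145, 158 to 95 in OVCAR-3 and 8 to 5 in SKOV-3. With the 14001 strongest peaks of every library, mucin promoter counts were 2 in COLO-205, 1 in DU-145 and 3 in OVCAR-3, distal peaks were 21, 3 and 9, and companion genes with a promoter peak were 27, 31 and 27, in the same order. With peaks less than 350 bp apart merged, SKOV-3 had 5 distal peaks, as adjoining peaks become 1. With a distal reach of 25 kb, DU-145 had 25, OVCAR-3 88 and SKOV-3 5 distal peaks, as a shorter reach takes in less sequence. With canonical starts alone, mucin promoter counts were 1 in DU-145 and 3 in OVCAR-3. Apart from those 2 constructions, the cause was not tested. With equal numbers of peaks 3 orders turned: OVCAR-3 passed COLO-205 in mucin promoters, DU-145 fell below the 8 distal peaks of SKOV-3, and DU-145 passed COLO-205 and OVCAR-3 in companion genes.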
